A study of Zea mays with 12 samples.

Results

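The maize genes pht1 and pht7, which encode phosphate transporters, and phytase1, which encodes a phytase, were followed in seedling leaves on 12 arrays. They were found by gene symbol or synonym among the named probe sets of the Affymetrix GeneChip Maize Genome Array, on which each probe set is a group of short oligonucleotides reporting a transcript. The search gave 3 probe sets, 1 for each gene, of 17621 tested and of 1108 genes that the named probe sets cover. The genes were pht1 (GRMZM2G326707), pht7 (GRMZM2G112377) and phytase1, whose symbol in the annotation is LOC542349 (GRMZM2G140101). The current gene table lists 10 genes with a pht symbol, of which 2 had a named probe set, and 2 genes with a phytase synonym, of which 1 had one. Cross-hybridization with the other members of these families was not tested.

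The 4 groups of 3 arrays were Cat100-6 in acid soil, Cat100-6 in control soil, S1587-17 in acid soil and S1587-17 in control soil. Both are tropical maize inbred lines, Cat100-6 aluminium-tolerant and S1587-17 aluminium-sensitive per the labels. After 2 days of germination on filter paper, seedlings spent 3 days in soil bags (20 seeds in 1 kg of soil). The acid soil was a Dark Red Latosol of pH 4.1 with 10 mmolc/dm3 of aluminium, and the control was the same soil limed with Ca(OH)2 at 0.8 g/kg to pH 5.5, with aluminium undetectable. All bags received the same fertilizer, which included 38.75 mg of phosphorus per kg of soil, and the acid soil also received CaCl2. The labels describe the arrays of a group as biological replicates without saying whether each came from a bag of its own, so the p-values reflect no more than the variation among these arrays.

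Plants take up phosphorus as inorganic phosphate. Transporters of the PHT1 family carry it across the plasma membrane together with protons, both at the root surface and between tissues inside the plant, and many members of the family are induced in roots when phosphate is scarce. Phytases release phosphate from phytate, the inositol hexakisphosphate in which seeds store phosphorus, and in maize phytase activity is known from germinating seeds. Acid soils rich in aluminium and iron oxides bind phosphate and limit its uptake.

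Values are log2 expression summarised by RMA, so a difference of 1 is a 2-fold change, and levels were not compared between probe sets. Arrays of a group correlated at 0.985 or higher across probe sets, but S1587-17 control soil replicate 3 had r of 0.963 to 0.967 with replicates 1 and 2. Its r with the Cat100-6 control arrays was 0.950 to 0.953, where replicates 1 and 2 had 0.902 to 0.914. For pht1, pht7 and phytase1, values without this array are given where they change a call or a direction or move a difference by over 1.5 times. For other phosphate genes they are given for some probe sets, beside the counts of calls that changed. For the leaf label, levels of photosynthesis genes on the 12 arrays were 12.49 to 13.12 for the Rubisco small subunit gene rbcS, 12.83 to 14.12 for the phosphoenolpyruvate carboxylase gene pep1 and 13.71 to 14.02 for the photosystem gene psaN. Some probe sets of this list were dim, with 4.45 to 5.07 at the dimmest of fnr1 and 4.04 to 4.72 at the dimmest of C4ppdkZm1. Among genes listed for roots, the iron transporter gene ys1 ranged from 4.64 to 9.64. Its means were 7.66 and 6.37 in S1587-17 control and acid soil, and 5.35 and 4.96 in Cat100-6 control and acid soil. The root gene zrp4 went the other way between lines in control soil, with means of 7.78 in Cat100-6 and 5.68 in S1587-17. The root gene por2 ranged from 4.63 to 7.03 and the seed gene bt2 from 7.90 to 8.64. Since probe sets differ in brightness, these levels are descriptions and do not measure the share of a tissue. Controls spiked into the hybridization averaged 9.71 ± 0.31 in Cat100-6 acid soil and 10.21 ± 0.21 in Cat100-6 control soil, and 10.17 ± 0.01 and 10.26 ± 0.05 in S1587-17 acid and control soil (SD, n = 3). The 3′ minus 5′ signal of the actin, ef1a and gapdh controls, which varies with RNA quality and labelling, was 1.45 ± 0.07 in Cat100-6 acid soil and 1.69 ± 0.14 in Cat100-6 control soil, and 0.93 ± 0.10 and 0.98 ± 0.20 in S1587-17 acid and control soil (SD, n = 3).

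The phosphate transporter transcript pht1 fell in acid soil in leaves of the tolerant line. In Cat100-6 acid soil its level was 7.40, 6.72 and 7.60 in replicates 1 to 3, against 8.87, 9.17 and 8.97 in Cat100-6 control soil. All 3 acid soil arrays lay more than 1 log2 unit below all 3 control arrays. The means were 7.24 ± 0.46 and 9.00 ± 0.15 (SD, n = 3 each), a log2 difference of -1.76 ± 0.27 (SE) or a 3.39-fold lower level (limma adjusted p = 0.000512, 95% interval -2.35 to -1.17). Leaving out any single array kept it past the threshold, with log2 differences from -1.94 to -1.50. With the arrays set to equal hybridization controls it was -1.27 ± 0.23 (adjusted p = 0.000379), where the median of all probe sets was 0.36 (-0.14 as deposited).

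In leaves of the sensitive line no such decrease of pht1 was detected. Its level was 7.45, 7.56 and 7.39 in S1587-17 acid soil, against 7.27, 7.68 and 8.37 in S1587-17 control soil. The acid soil arrays fell within the range of the controls, of which replicate 3 was the highest. The means were 7.47 ± 0.09 and 7.77 ± 0.55 (SD, n = 3 each), with a log2 difference of -0.31 ± 0.27 (adjusted p = 0.874, 95% interval -0.89 to 0.28). Without control soil replicate 3 the difference was -0.01 ± 0.22.

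The responses of pht1 in the lines differed by -1.46 ± 0.38 log2 units, Cat100-6 minus S1587-17 (limma adjusted p = 0.0305, 95% interval -2.29 to -0.63). This call was close to the threshold. It ended when any 1 of 10 arrays was left out, namely every array but Cat100-6 acid soil replicate 3 and S1587-17 control soil replicate 3 (adjusted p between 0.0545 and 0.0749, differences from -1.54 to -1.20). Without S1587-17 control soil replicate 3 the difference was -1.75 ± 0.30 (adjusted p = 0.000922).

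**Figure D1:**
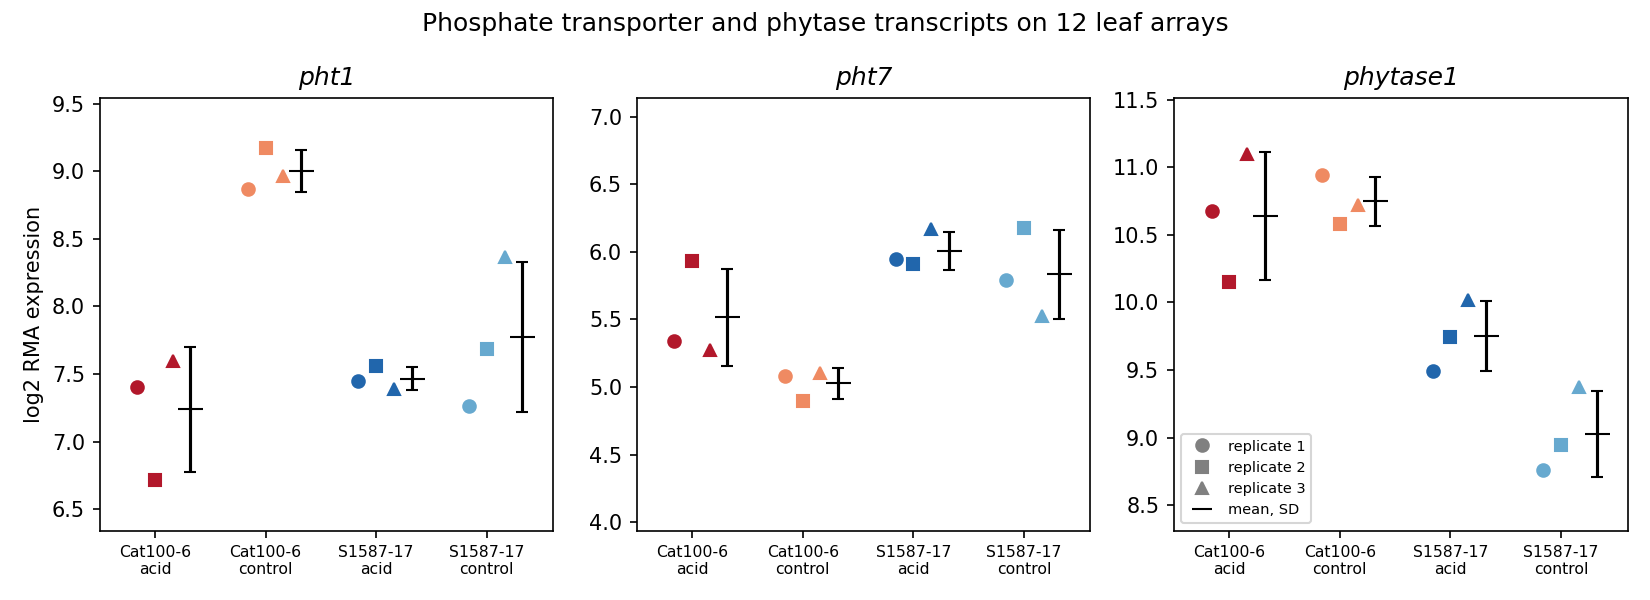
Log2 RMA expression of pht1, pht7 and phytase1 on each of the 12 arrays (coloured symbols, 3 per group) with group means and SD (black); each panel spans the same number of log2 units on its own axis. For pht1 the 3 Cat100-6 control arrays (8.87 to 9.17) stand above all other arrays, and for phytase1 both Cat100-6 groups stand above both S1587-17 groups.

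Leaf pht7, the other phosphate transporter transcript, did not pass in either line's response. It was 5.34, 5.93 and 5.27 in Cat100-6 acid soil, against 5.08, 4.90 and 5.10 in Cat100-6 control soil. The acid soil arrays were all above the controls, with replicate 2 the highest. The log2 difference was 0.49 ± 0.19 (adjusted p = 0.0517, 95% interval 0.06 to 0.91), just short of the threshold. It passed under 7 of 19 alternatives, among them the scaling to hybridization controls (0.98 ± 0.28, adjusted p = 0.0105) and the fit without S1587-17 control soil replicate 3 (adjusted p = 0.0264).

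In S1587-17 the level of pht7 was 5.95, 5.91 and 6.17 in acid soil, against 5.79, 6.18 and 5.53 in control soil. The groups overlapped, and the log2 difference was 0.18 ± 0.19 (adjusted p = 0.874, 95% interval -0.25 to 0.60), or 0.022 ± 0.19 without control soil replicate 3. The difference between the lines' responses was 0.31 ± 0.27 (adjusted p = 0.426, 95% interval -0.29 to 0.92), so the pht7 responses of the lines could not be told apart. It was 0.71 with scaling to hybridization controls (adjusted p = 0.263). The probe set was dim: pht7 was among the 40% of probe sets with the lowest mean, where RMA compresses differences.

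Phytase transcript levels did not change detectably with soil in Cat100-6. The level of phytase1 was 10.68, 10.15 and 11.10 in Cat100-6 acid soil, against 10.94, 10.58 and 10.72 in Cat100-6 control soil. The control arrays lay inside the range of the acid soil arrays. The log2 difference was -0.11 ± 0.24 (adjusted p = 0.715, 95% interval -0.63 to 0.42), and its sign turned without Cat100-6 acid soil replicate 2 (0.14) and with scaling to hybridization controls (0.39).

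In S1587-17 the level of phytase1 was 9.50, 9.75 and 10.02 in acid soil, against 8.76, 8.94 and 9.38 in control soil. All acid soil arrays were above all controls. Groups that did not overlap, in either direction, were seen for 7.66% of all probe sets in this comparison. The log2 difference was 0.73 ± 0.24, a 1.65-fold higher level, with an unadjusted p = 0.0107 in limma that ranked 113 among the 17621 probe sets, but it did not pass (adjusted p = 0.874, 95% interval 0.21 to 1.25). No probe set passed in this line's response (613 had an unadjusted p under 0.05). The difference between the lines' responses of phytase1 was -0.83 ± 0.34 (adjusted p = 0.103, 95% interval -1.57 to -0.10). It passed with array weights (-0.83, adjusted p = 0.0338), without Cat100-6 acid soil replicate 3 (-1.06, adjusted p = 0.0357) and without S1587-17 control soil replicate 3 (-1.01, adjusted p = 0.0231). With scaling to hybridization controls it was -0.43 (adjusted p = 0.429).

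Set against the whole array, 1 of the 3 genes passed in the Cat100-6 response, where 55.0% of all probe sets passed and 31.5% were lower in acid soil. The share of genes that passed is thus not above the background. In size, the pht1 change in Cat100-6 was exceeded by 5.28% of all probe sets. Groups did not overlap for 2 of the 3 genes, against 68.6% of all probe sets. In S1587-17, 0 of 3 passed (0% of all probe sets). The difference of responses passed for 1 of 3, against 14.7% of all probe sets. For 5.92% of all probe sets it passed with a negative sign, Cat100-6 minus S1587-17. These comparisons share arrays, so they are not independent of each other.

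Between the lines, all 3 genes differed in control soil. There pht1 averaged 9.00 ± 0.15 in Cat100-6 and 7.77 ± 0.55 in S1587-17 (SD, n = 3 each), a log2 difference of 1.23 ± 0.27 (SE, adjusted p = 0.00274), or 1.53 ± 0.22 without S1587-17 control soil replicate 3. The opposite was seen for pht7, which was lower in Cat100-6 at 5.03 ± 0.11 than in S1587-17 at 5.83 ± 0.33 (SD, n = 3 each), a log2 difference of -0.81 ± 0.19 (SE, adjusted p = 0.00502). For phytase1 the means were 10.75 ± 0.18 in Cat100-6 and 9.03 ± 0.32 in S1587-17 (SD, n = 3 each), a log2 difference of 1.72 ± 0.24 (SE) or a 3.30-fold higher level in the tolerant line (adjusted p = 0.000151). The 3 line differences in control soil passed under every alternative run. None of the alternatives covered sequence differences between the lines under the probes, or the 3′ minus 5′ signal, which was higher in Cat100-6. Their part in the line differences in either soil was not tested. No array of one line overlapped with those of the other for any of these genes, which held for 55.5% of all probe sets, and 51.5% of all probe sets passed in this comparison, 28.2% higher and 23.2% lower in Cat100-6.

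In acid soil 1 of the 3 genes, phytase1, passed between the lines. Its means were 10.64 ± 0.47 in Cat100-6 and 9.75 ± 0.26 in S1587-17 (SD, n = 3 each), a log2 difference of 0.89 ± 0.24 (SE, adjusted p = 0.0184) or a 1.85-fold higher level in Cat100-6. This call ended without Cat100-6 acid soil replicate 1 or 3 or S1587-17 acid soil replicate 1 or 2 (adjusted p between 0.0551 and 0.0771, differences from 0.66 to 0.89). The pht1 difference was -0.23 ± 0.27 (adjusted p = 0.600, 95% interval -0.81 to 0.36), and the arrays of the lines overlapped. That of pht7 was -0.49 ± 0.19 (adjusted p = 0.0911, 95% interval -0.92 to -0.07), again with overlapping arrays. It was -0.040 with scaling to hybridization controls (adjusted p = 0.914), and passed without S1587-17 control soil replicate 3 (-0.49, adjusted p = 0.0434), without Cat100-6 acid soil replicate 2 (-0.70, adjusted p = 0.0150) and with array weights (-0.56, adjusted p = 0.0191). In this comparison 24.0% of all probe sets passed and 13.3% of all were higher in Cat100-6, and the lines did not overlap at 45.5%.

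The order of the groups therefore differed from gene to gene. For pht1, Cat100-6 control soil was the highest by 1.23 log2 units, and the ranges of the other 3 groups overlapped from neighbour to neighbour. For pht7, the order from high to low was S1587-17 acid soil, S1587-17 control soil, Cat100-6 acid soil and Cat100-6 control soil, and only the last neighbours, Cat100-6 in acid and control soil, had ranges that did not overlap. For phytase1, the order was Cat100-6 control soil, Cat100-6 acid soil, S1587-17 acid soil and S1587-17 control soil. Its Cat100-6 groups overlapped and its other neighbours did not.

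**Figure D2:**
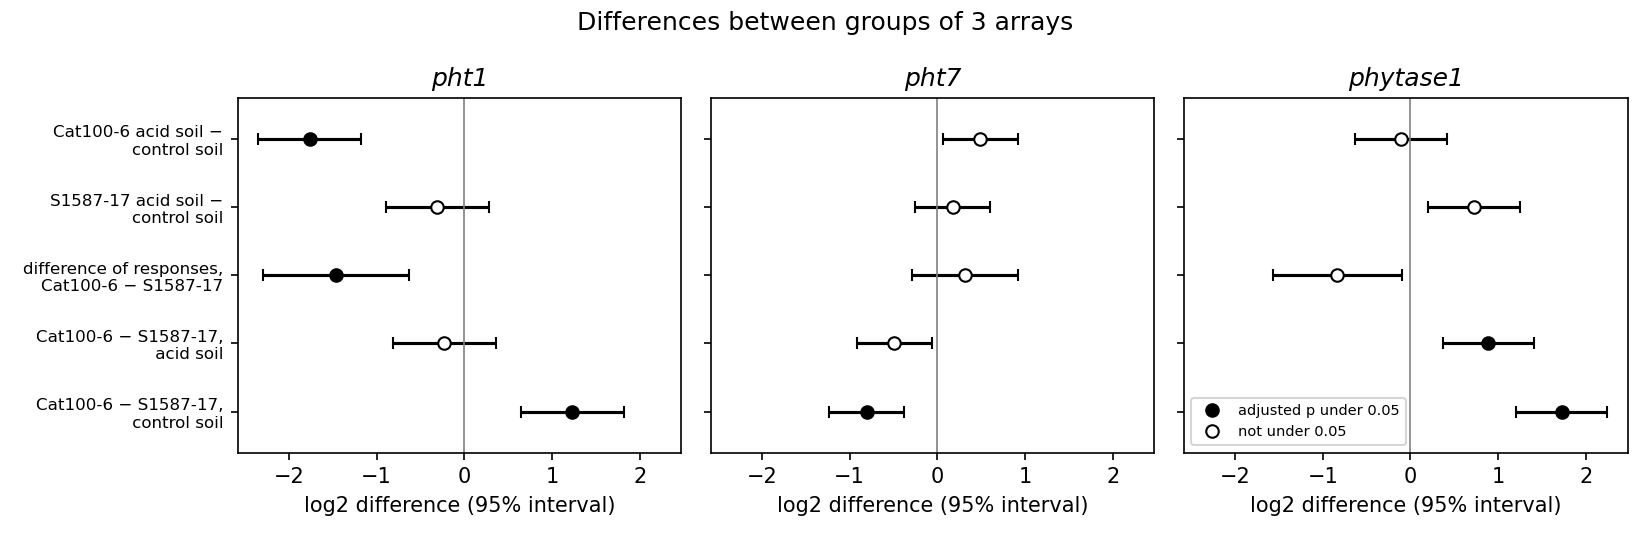
Log2 differences with 95% intervals (limma, n = 3 arrays per group) for 5 comparisons of pht1, pht7 and phytase1; filled points had an adjusted p under 0.05. In control soil all 3 genes differed between the lines, pht7 in the direction opposite to the others.

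Some markers of leaf and other tissues moved with the soil in Cat100-6 beside pht1. Over all probe sets, 31.5% were lower and 23.5% higher in acid soil in this line. Of the 18 photosynthesis probe sets, which covered 11 genes, 11 were lower in acid soil, 1 was higher and 6 did not pass. Their median log2 difference was -0.58, against -0.14 over all probe sets. Their mean level ranged from 10.20 to 10.70 in Cat100-6 acid soil and from 10.94 to 10.97 in Cat100-6 control soil, and from 10.36 to 10.49 and 10.42 to 10.85 in S1587-17 acid and control soil. The 7 probe sets of genes with root-preferential expression or roles covered 4 genes, and most were of nas1. Of these probe sets, 4 were lower, 0 higher and 3 did not pass in Cat100-6 acid soil. The mean level of the 7 ranged from 4.82 to 5.02 there and from 5.44 to 5.68 in Cat100-6 control soil. In S1587-17 it ranged from 5.17 to 5.42 in acid and from 5.18 to 6.00 in control soil. Of 19 seed probe sets (11 genes), 1 was higher, 6 were lower and 12 did not pass in Cat100-6 acid soil. The lower share was near that of all probe sets, and the median log2 difference was -0.17. The mean level of the seed probe sets ranged from 3.98 to 4.02 in Cat100-6 acid soil and from 4.10 to 4.22 in Cat100-6 control soil. In S1587-17 it ranged from 4.03 to 4.04 in acid and from 3.99 to 4.11 in control soil. The part of these markers, of the hybridization controls and of the 3′ to 5′ difference in the pht1 result was not tested. In whole leaves, fewer cells of a type and less transcript per cell cannot be told apart.

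Other genes of phosphate and phytate use were taken from a list of 54 symbols, of which 7 genes had named probe sets, 8 in all. In Cat100-6 all 8 probe sets passed, 3 higher and 5 lower in acid soil, where 55.0% of all probe sets passed, made up of 23.5% higher and 31.5% lower. Their median log2 difference was -0.43, against -0.14 over all probe sets. In S1587-17 none passed, and the median was -0.07, against -0.02 over all probe sets. The count of 5 lower became 3 without any 1 of 8 arrays, and 2 after scaling to hybridization controls, when the median turned to 0.071.

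Transport genes of this list moved in opposite directions in the tolerant line. MZPPT1, which encodes the plastid translocator that exchanges phosphoenolpyruvate for phosphate, was 10.29, 10.77 and 9.97 in Cat100-6 acid soil, against 8.30, 8.36 and 8.25 in Cat100-6 control soil. It rose by 2.04 ± 0.35 log2 units (adjusted p = 0.000968). In S1587-17 it was 10.51, 10.76 and 10.74 in acid soil, against 10.67, 10.98 and 9.30 in control soil, a difference of 0.35 ± 0.35 (adjusted p = 0.874) that turned to -0.16 without control soil replicate 3. All S1587-17 arrays but control soil replicate 3 lay as high as or higher than the mean of Cat100-6 acid soil. The MZPPT1 responses differed by 1.69 ± 0.50 (adjusted p = 0.0447), a call that ended without any 1 of the same 10 arrays as for pht1 (adjusted p between 0.0798 and 0.105). The vacuolar proton pump H+-PPase (vpp1), which is driven by pyrophosphate, fell at both of its probe sets in Cat100-6. The log2 difference was -1.86 ± 0.34 at the probe set with the suffix _a_at (adjusted p = 0.00136) and -1.27 ± 0.19 at the one with the suffix _at (adjusted p = 0.000493). In S1587-17 the differences were -0.57 ± 0.34 and -0.23 ± 0.19 (adjusted p = 0.874 for both), and -0.24 and -0.0043 without control soil replicate 3. The difference of responses passed at the _at probe set (-1.04 ± 0.27, adjusted p = 0.0306) and not at the _a_at probe set (-1.29 ± 0.49, adjusted p = 0.0866). The call at the _at probe set ended when scaled to hybridization controls (-0.64, adjusted p = 0.143) and without any 1 of those 10 arrays.

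Genes of phytate synthesis and storage and PPCK1 made up the rest of the list. In Cat100-6 acid soil the phytate transporter gene lpa1 (MRP4) fell by 0.53 ± 0.14 log2 units (adjusted p = 0.00983), lpa3 (MIK), the myo-inositol kinase gene, by 0.41 ± 0.16 (adjusted p = 0.0481), and INO1, of the enzyme that makes inositol phosphate from glucose 6-phosphate, by 0.44 ± 0.17 (adjusted p = 0.0466). ITPK1 (lpa2), an inositol phosphate kinase gene, rose by 0.34 ± 0.13 (adjusted p = 0.0414). With scaling to hybridization controls lpa1, lpa3 and INO1 no longer passed, at -0.03, 0.09 and 0.05 log2 units. ITPK1 did not pass with a second quantile normalization (0.26, adjusted p = 0.0905), subtracted medians (0.24, adjusted p = 0.108) or array weights (0.32, adjusted p = 0.104), nor lpa3 with a trended variance (adjusted p = 0.0527) or array weights (adjusted p = 0.0995). The calls of ITPK1, lpa3 and INO1 also ended without any 1 Cat100-6 array, save that of ITPK1 without control soil replicate 1. They further ended without S1587-17 acid soil replicate 3 (ITPK1, INO1), 2 (lpa3, INO1) or 1 (INO1), or without S1587-17 control soil replicate 2 (lpa3, INO1). PPCK1, the kinase of phosphoenolpyruvate carboxylase, whose relatives in Arabidopsis are induced by phosphate shortage, rose by 0.85 ± 0.20 (adjusted p = 0.00485). None of these 5 genes passed for the difference of responses with all 12 arrays. Without S1587-17 control soil replicate 3, this comparison had 2 probe sets of the list higher and 3 lower, against 1 and 1. With array weights 1 was higher and 3 were lower. The calls without that array reached beyond the probe sets of MZPPT1 and H+-PPase, so the negative result for these genes depended on it. Between lines, lpa1 was higher in Cat100-6 than in S1587-17 in acid soil (9.37 ± 0.18 and 8.77 ± 0.18, adjusted p = 0.0103) and in control soil (9.90 ± 0.08 and 9.10 ± 0.24, adjusted p = 0.000835) (SD, n = 3 each). The difference in acid soil ended without S1587-17 acid soil replicate 3 (adjusted p = 0.0509). INO1 was lower in Cat100-6 in acid soil (8.59 ± 0.01 and 9.42 ± 0.14, adjusted p = 0.00456), though not with scaling to hybridization controls (adjusted p = 0.170). In control soil 3 of the list's 8 probe sets were higher in Cat100-6 and 3 lower, against 28.2% and 23.2% of all probe sets. Beside lpa1, both of H+-PPase were higher (1.21 at _a_at, adjusted p = 0.0124, and 1.19 at _at, adjusted p = 0.00041). MZPPT1 (-2.01, adjusted p = 0.000695), PPCK1 (-0.59, adjusted p = 0.0278) and INO1 (-0.44, adjusted p = 0.0483) were lower. The arrays of the lines overlapped for PPCK1 and INO1. With scaling to hybridization controls or a fit of the 2 groups alone 1 was lower, and with medians subtracted or array weights 2 were. Leaving out any single array also brought the count of 3 lower to 2 or 1. It was 2 lower and 4 higher without S1587-17 control soil replicate 3.

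**Figure D3:**
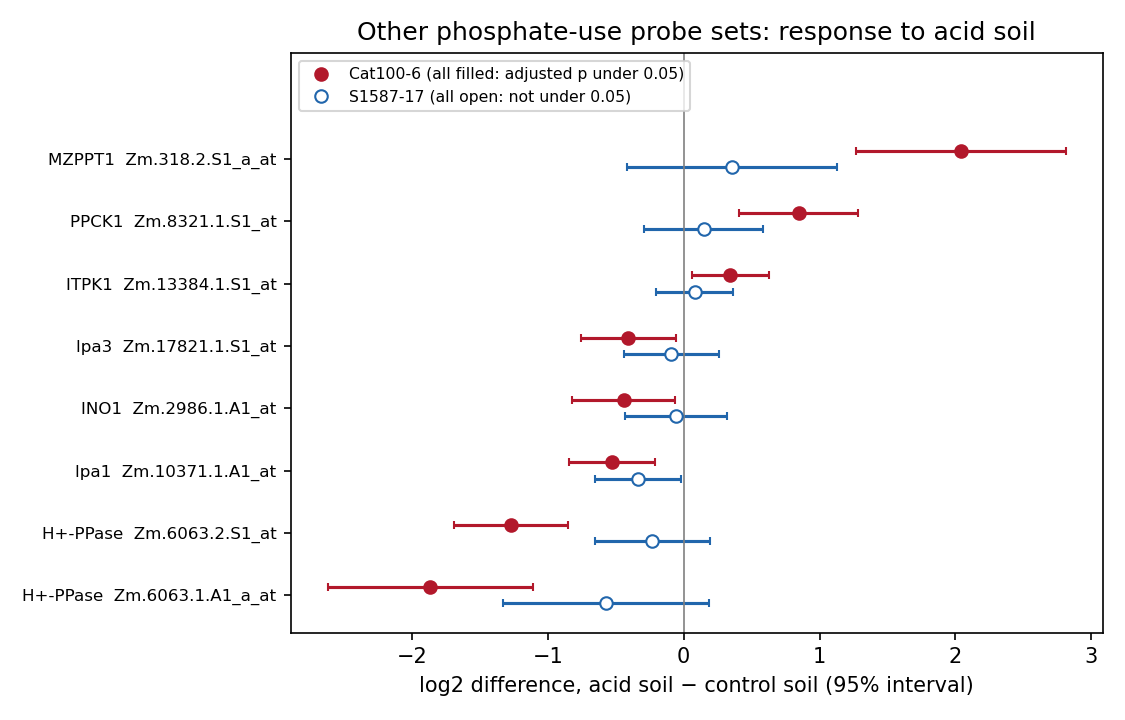
Log2 difference between acid and control soil with 95% intervals for 8 probe sets of other phosphate and phytate genes, in Cat100-6 (red) and S1587-17 (blue). All 8 passed in Cat100-6, from -1.86 to 2.04, and none in S1587-17, from -0.57 to 0.35.

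The named genes whose levels ran most like each member were found by Pearson correlation over the 12 arrays, which share 4 groups and any shift of a whole array, among 1263 named probe sets. For pht1 these were the sucrose transporter gene sut1 (r = 0.989), PDK2 (0.985), the laccase gene LAC1 (0.984), GA20 (0.982) and the silicon channel gene Lsi1 (0.982). For deviations from group means the r of sut1 with pht1 was 0.977. It came from the same 12 arrays on which sut1 was picked, so it is no separate test of their likeness. The deviations of pht1 were largest in the tolerant line's acid soil and the sensitive line's control soil (SD 0.46 and 0.55). The SD was 0.15 and 0.09 in the tolerant line's control soil and the sensitive line's acid soil. Any shift of a whole array stays in such deviations, also in those of the members below, and its part was not tested. For pht7 they were vdac1a, a channel of the mitochondrial outer membrane (r = 0.968), the Polycomb gene fie2 (0.964), the spindle checkpoint gene mad2 (0.951), the glutathione transferase gene gst41 (0.950) and the ribosomal protein gene rps13 (0.946). For phytase1 they were the chaperone gene hsp101 (r = 0.977), gst5 (0.938), the starch branching enzyme gene ae1 (0.934), ALDH10A9 (0.924) and the sucrose synthase gene sus2 (0.921). Within groups the r of gst5 with phytase1 was 0.414 and that of hsp101 was 0.900. Among the members, pht1 and pht7 ran in opposite directions over the arrays (r = -0.762, and -0.745 for deviations from group means), pht7 and phytase1 had r = -0.720 (-0.522 for deviations), and pht1 and phytase1 had r = 0.390 (0.729 for deviations).

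**Figure D4:**
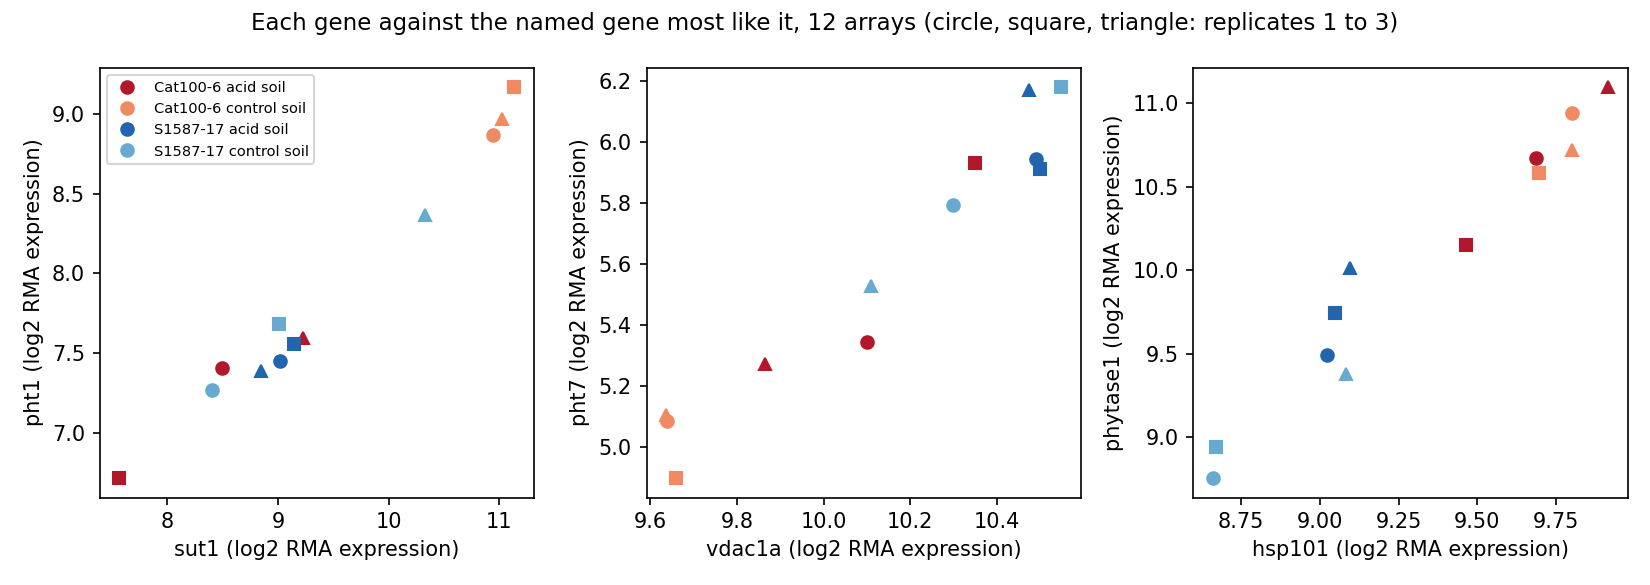
Log2 RMA expression of pht1, pht7 and phytase1 against the named gene most like each (sut1, vdac1a and hsp101) on the 12 arrays, coloured by group. S1587-17 control soil replicate 3 (light blue triangle) lies between its group-mates and the Cat100-6 control arrays for pht1 (8.37) and for sut1 (10.33).

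The members' differences were set side by side under all alternatives. The pht1 change in Cat100-6 and the line differences in control soil kept their direction and passed in every alternative run. The pht7 change in Cat100-6 and the phytase1 difference between lines in acid soil lay near the threshold, as did the pht1 difference of responses.

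**Figure D5:**
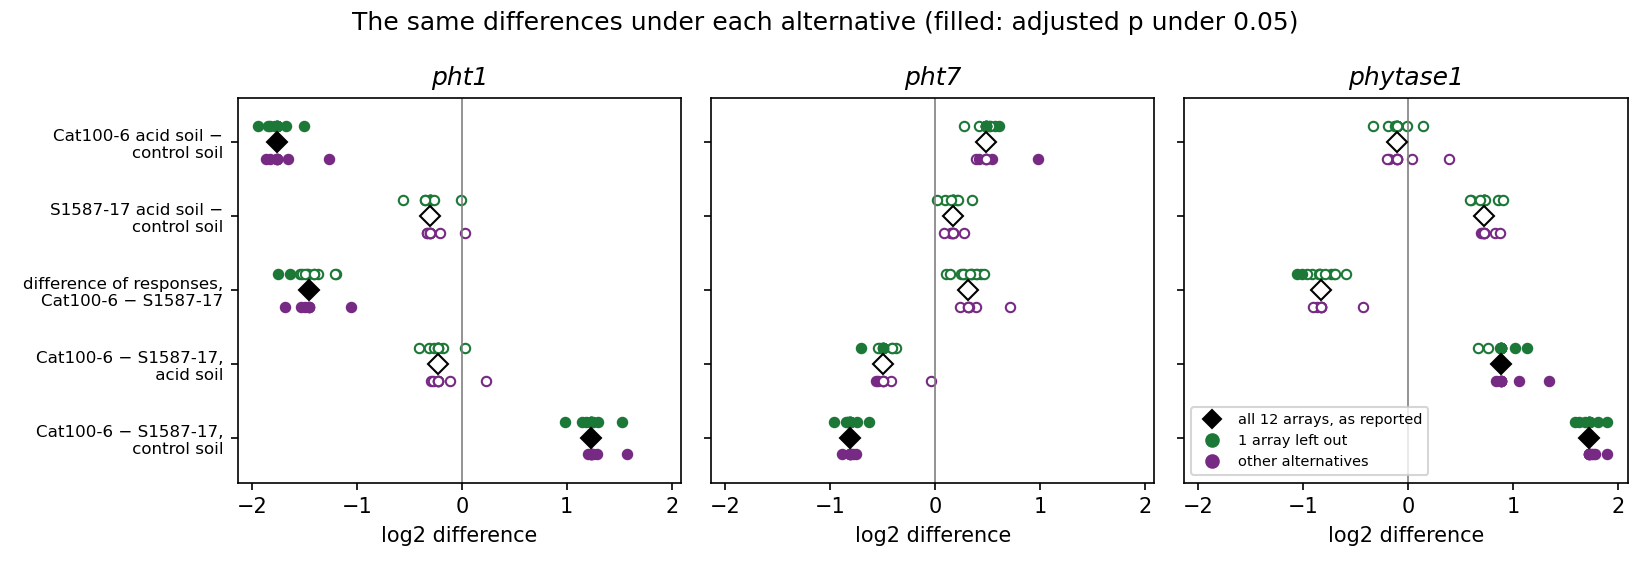
Log2 differences of pht1, pht7 and phytase1 as reported (black diamonds), with 1 of the 12 arrays left out (green, above) and under the other alternatives (purple, below); filled symbols had an adjusted p under 0.05. For pht1 in Cat100-6 all values lay between -1.94 and -1.27 and passed.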

How the data were processed

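The authors deposited log2 values per probe set. The submitters' processing notes name RMA, which corrects background, normalizes arrays by quantiles and summarises probes, while its software and settings are not stated in the sources used. Of 17734 probe sets, 113 controls were left out of the tests. A single gene symbol was given by the platform annotation for 1452 probe sets, and 1377 of these were found in RefSeq genes of assembly B73 NAM 5.0, used for names only.

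All 12 arrays were fitted together in limma 3.58.1 (R 4.3.3), with group means and empirical Bayes moderation. Benjamini-Hochberg adjustment ran over all 17621 probe sets tested, and adjusted p under 0.05 counted as passing. The procedure was tested on simulated data. Precision is limited by the number of arrays.

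The members, the lists and the rules for naming genes were chosen with earlier results of these data known. All members are named, with the members of a list of phosphate and phytate genes and, for each member, the 5 named genes of highest correlation. Matches through a symbol shared with an unrelated gene were left out (1 probe set of the phosphate list, 2 of the leaf and 1 of the seed list). INO1 entered the phosphate list through its synonym lpa1, also the symbol of another gene there, and was kept as a gene of phytate synthesis. Alternatives were a second quantile normalization, a filter on the dimmest 40% of probe sets, subtracted array medians, scaling to 9 hybridization controls, array weights, a trended variance with robust moderation, fitting the 2 compared groups alone, a block for the replicate number, and omission of each array. The counts of the phosphate list under them were an addition made after seeing the data. The plots were made with matplotlib 3.10.9.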

Additional observations from a re-analysis of the deposited data

Results flagged for a closer look

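The response of pht1 to acid soil differed between the lines by -1.46 log2 units, Cat100-6 minus S1587-17, in a test of the difference itself (limma adjusted p = 0.0305). The response was -1.76 in Cat100-6 and -0.31 in S1587-17, or -0.01 in S1587-17 without its control soil replicate 3. The call for the difference was close to the threshold and ended when any 1 of 10 arrays was left out.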

How the results depend on the processing

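The pht1 change in Cat100-6 and the 3 line differences in control soil passed in every alternative run. The change of pht7 in Cat100-6, 0.49 as reported, passed with a second quantile normalization (0.54), scaling to hybridization controls (0.98), a fit of the 2 groups alone (0.49) and array weights (0.42), and spanned 0.28 to 0.61 with single arrays left out. That of phytase1 turned positive with hybridization controls (0.39) and array weights (0.040), and spanned -0.33 to 0.14. Array weights also turned pht1 in S1587-17 to 0.027, and let the phytase1 difference of responses (-0.83) and the pht7 line difference in acid soil (-0.56) pass. The pht1 line difference in acid soil became 0.23 with hybridization controls. With single arrays left out, the difference of responses spanned -1.75 to -1.20 for pht1 and -1.06 to -0.59 for phytase1, and the line difference in acid soil -0.41 to 0.035 for pht1, -0.70 to -0.37 for pht7 and 0.66 to 1.13 for phytase1. Medians of the phosphate list turned to 0.071 (Cat100-6), 0.025 (S1587-17) and 0.14 (difference of responses) with hybridization controls, and to -0.020 (lines in acid soil) with medians subtracted. The causes were not tested.

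Over all probe sets, 2588 passed for the difference of responses, against 7381 with array weights, 7920 without S1587-17 control soil replicate 3 and as few as 967 without another array. In S1587-17 up to 2 passed, against 0. The Cat100-6 response had 4141 higher and 5556 lower, and 6589 and 1050 with hybridization controls. The difference of responses had 1544 and 1044, against 1365 and 1745 with medians subtracted and 2000 and 173 with hybridization controls, and the lines in acid soil 2348 and 1875, against 6338 and 528 with hybridization controls. Same-numbered arrays deviated together by correlations of -0.29 to 0.19, so the numbers were not read as pairs. With the replicate block no call of the members changed (pht1 in Cat100-6 -1.76, adjusted p = 0.00068). The filter on dim probe sets left out pht7 and gave no value for it.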
